A study of Caenorhabditis elegans with 2 samples.

Results

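The 72 histone genes described here are the protein-coding genes of Caenorhabditis elegans whose symbols start with his-. Membership was set by that name, among 19973 protein-coding genes on the nuclear chromosomes. The group was chosen with earlier results of these data known. They encode 1 linker histone H1 (his-24) and 17 H2A, 17 H2B, 21 H3 and 16 H4 proteins. Of these genes, 67 lay in 14 clusters of 2 to 13 genes, in which each gene had another histone gene within 5000 bp. The other 5, his-24, his-71, his-72, his-73 and his-74, stood alone.

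The binding of EFL-1, an E2F family transcription factor, was mapped by ChIP-seq, the sequencing of DNA precipitated with a bound protein, in whole larvae of the first larval stage (L1), pooled and of mixed sex. The only group held 2 biological replicates, numbered 2 and 3 in the labels. All worms were of strain YL418, which carries the mutation unc-119(ed3) on chromosome III and the integrated transgene vrIs65. That transgene holds the ges-1 promoter, which is known for activity in the intestine, the EFL-1 gene tagged with GFP and FLAG, the 3' end of efl-1 and an unc-119(+) gene. The labels give the antibody as efl-1 and the target as eGFP-tagged, so bound EFL-1 from the transgene and from the worm's own gene cannot be told apart. There was no second genotype, stage or treatment, and every value below is a level in this group.

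Histones are the proteins around which DNA is wound: H2A, H2B, H3 and H4 form the nucleosome core and H1 binds the linker DNA between cores. Most histone genes are replication-dependent. They occur in many near-identical copies, are used in S phase, and their messages end in a stem-loop that is bound by the protein CDL-1. Variant histones such as H3.3 are made and deposited outside S phase as well. E2F proteins bind DNA with a DP partner, and they are known for their place at genes of DNA replication and the cell cycle.

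The readout was the deposited lists of regions enriched in EFL-1 ChIP. An IDR set of 1886 peaks holds the regions that passed the authors' threshold on reproducibility (irreproducible discovery rate). Lists of 30000 regions exist for each replicate and for both pooled, and these reach far below that threshold. Of the IDR peaks, 1884 overlapped a region of replicate 2 and 1825 a region of replicate 3, so not every peak had a region in both. Each region has a signal in the authors' units, whose scale differs between the lists, and a summit, the position of highest enrichment. A gene was counted when a summit lay in its promoter window. This window ran from 1000 bp before a transcript's 5' end to 500 bp past it, for any annotated transcript. A gene with several transcript starts could therefore have more sequence searched. Of the 72 histone genes, 70 had no alternative transcript start. The number of starts of other genes is not given here. Window length was not matched between histone genes and all genes. The lowest signal was 24.4 in the IDR set and 5.72 in the pooled list. The lists give no read depth, so intervals cover the counting of genes only.

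EFL-1 peaks past the IDR threshold stood at 4 of the 72 histone genes, his-37, his-67, his-68 and his-72. This is 5.56% (95% Clopper-Pearson interval 1.53 to 13.6%), beside 11.0% of all protein-coding genes. The 4 genes held 3 distinct peaks, because his-67 and his-68 share 1. In the pooled list 21 of 72 genes had a region (29.2%, 19.0 to 41.1%), beside 51.0% of all genes. These 21 genes shared 19 distinct regions. In replicate 2 alone 21 of 72 genes had a region, beside 50.2% of all genes, and in replicate 3 alone 17 of 72 had one, beside 50.1%. Both replicate lists and the pooled list held a region for 13 genes, while 45 genes had none in any of the 3 lists. In a narrower window, from 300 bp upstream to 100 bp downstream, 3 histone genes had an IDR peak, beside 7.17% of all genes, and 13 had a pooled region, beside 24.6%. In each of these lists and windows the histone share lay below that of all genes. The part of unmatched window length in this was not tested. The interval of the IDR share held the value of all genes, and that of the pooled share did not. Neighbouring genes that share a region are not independent, so the intervals are too narrow.

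Most histone promoter windows consist largely of sequence that recurs elsewhere in the genome, and this moved with the counts. For each promoter window the share of its 36-bp stretches that recur elsewhere in the genome, on either strand, was taken from the genome sequence. The median share was 79.3% for histone genes (range 0 to 100%) and 0% for all protein-coding genes. More than 50% of the window was repeated for 41 of 72 histone genes and for 512 of all 19973 genes, and 17 histone windows were repeated throughout. A read of that length from such a stretch matches more than 1 place. The read length and how such reads were treated are not given in the sources available here.

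Among the 41 histone genes with more than 50% of the window repeated, none had an IDR peak and 3 had a pooled region (his-56, his-65 and his-66). Of all genes with that much repeated sequence, 24 of 512 (4.69%) had a pooled region. Among the 31 histone genes with at most 50% repeated, 18 had a pooled region (58.1%, 39.1 to 75.5%), beside 52.2% of all genes in that range. Of the same 31 genes, 4 had an IDR peak (12.9%, 3.63 to 29.8%), beside 11.3%. Within each range of repeated sequence the interval of the histone share therefore held the share of all genes. Where histone genes had a pooled region, the median signal of the strongest one was 8.98, beside 9.31 for all genes with a region. The part of repeated sequence in the low histone count was not tested. The limit of 50% was set after the values were seen.

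**Figure D1:**
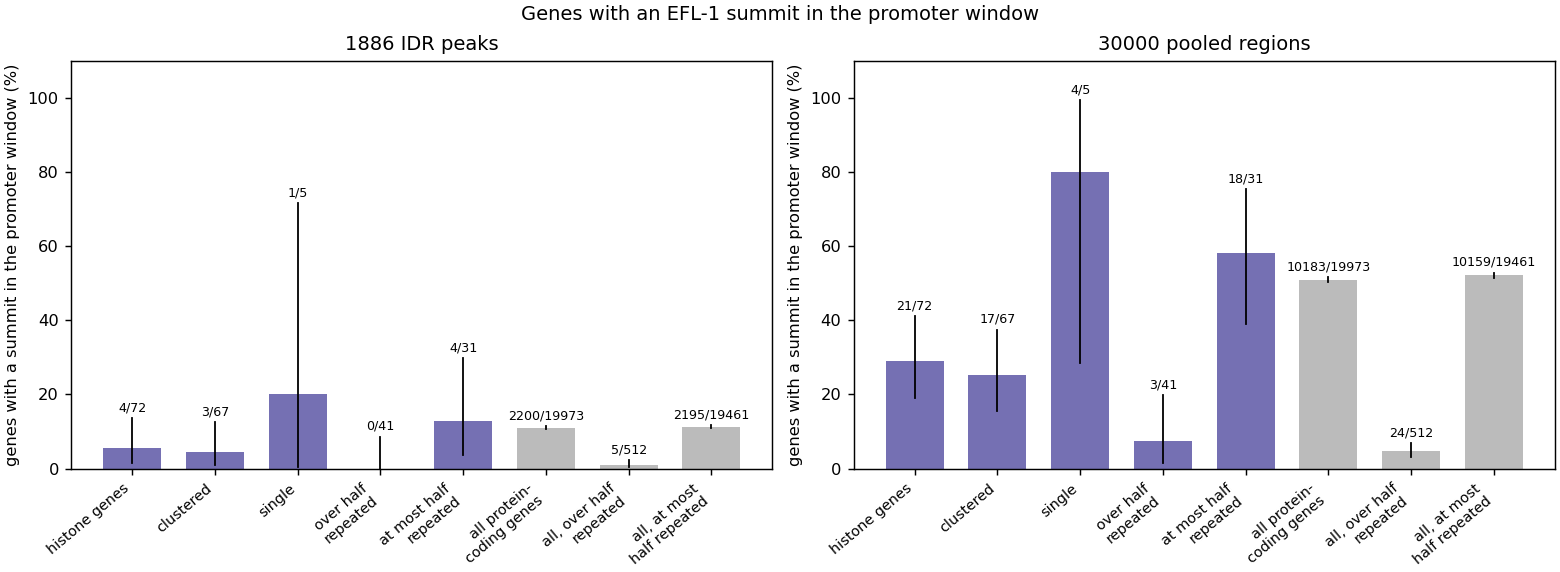
Share of genes with an EFL-1 summit in the promoter window (vertical axis, %), in the IDR peaks (left) and in the pooled regions (right), for histone genes (purple) and all protein-coding genes (grey). Lines are 95% Clopper-Pearson intervals and the numbers above them are genes with a summit over genes counted. Histone genes with at most 50% of the window repeated stand near all genes of that range in both lists (4 of 31 and 18 of 31), and those with more stand near 0.

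By finer steps, pooled regions became rarer with repeated sequence in all genes, and in histone genes they were fewest above 50%. Of all genes with under 1% repeated, 55.4% had a pooled region, against 26.1% with 25 to 50% repeated and 2.29% with 75 to 100% repeated. Of histone genes, 4 of 5 had one with under 1% repeated, 5 of 6 with 1 to 10%, 5 of 12 with 10 to 25%, 4 of 8 with 25 to 50%, 0 of 3 with 50 to 75% and 3 of 38 with 75 to 100%. The histone genes were thus concentrated in the range in which few genes of any kind had a region.

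**Figure D2:**
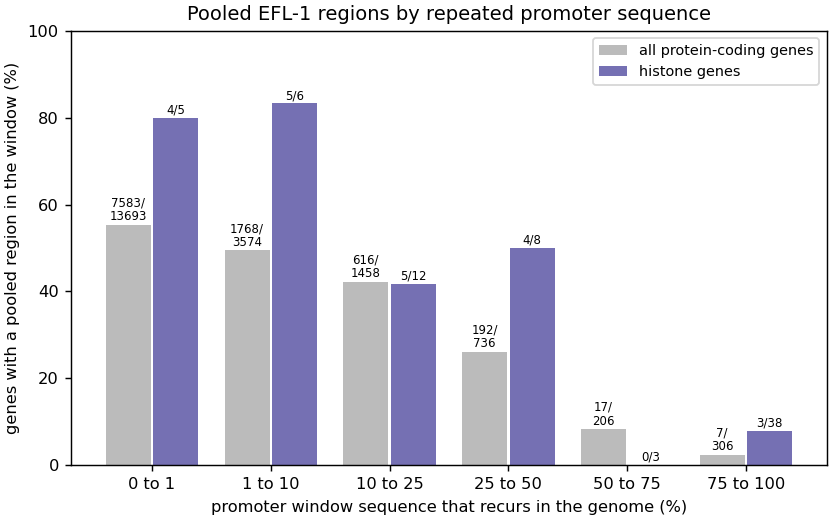
Share of genes with a pooled EFL-1 region (vertical axis, %) by the share of the promoter window that recurs in the genome (horizontal axis, %), for all protein-coding genes (grey) and histone genes (purple), with the counts above the bars. The grey bars go from 55.4% at the left to 2.29% at the right, and 38 of the 72 histone genes lie in the rightmost range.

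Sequences from 6 histone regions are shown: those of his-37 and his-72, which have IDR peaks, the 2 strongest below the IDR threshold, and 2 weaker ones. These 2 lie between divergent genes and resemble the sequence of another histone pair, with 85.5% and 88.7% of aligned bases identical. All are from ce11 (WBcel235), on the plus strand, 5' to 3', from within 100 bp of the summit and outside annotated genes. Capitals mark an E2F motif, the hexamers TTTGAA and TATAAA, and a 9-base run that was found in 3 of these stretches after they were read, ATGTGTCCC or its complement. The region of his-37 (H4), chrV:9546915-9547054, holds both the E2F motif TTTCCCGC and the run. The region of his-72 (H3.3), chrIII:12369587-12369787, holds TTTGAA. The stretches between his-35 (H2A) and his-41 (H2B), chrV:9545339-9545485, and between his-4 (H2B) and his-3 (H2A), chrV:16040658-16040757, hold none of these as printed. Those between the H4 and H3 genes his-31 and his-32, chrIV:8334089-8334254, and his-60 and his-59, chrIV:7488071-7488198, hold the run, the former with TATAAA.
his-37: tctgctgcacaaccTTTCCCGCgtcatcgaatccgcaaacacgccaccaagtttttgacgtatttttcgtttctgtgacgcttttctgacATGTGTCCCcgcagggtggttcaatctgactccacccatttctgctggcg
his-72: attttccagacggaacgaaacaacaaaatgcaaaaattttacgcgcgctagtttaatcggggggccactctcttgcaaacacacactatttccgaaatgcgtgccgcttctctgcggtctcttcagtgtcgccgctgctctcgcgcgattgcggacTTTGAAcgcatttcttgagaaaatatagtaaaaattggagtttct
his-35/his-41: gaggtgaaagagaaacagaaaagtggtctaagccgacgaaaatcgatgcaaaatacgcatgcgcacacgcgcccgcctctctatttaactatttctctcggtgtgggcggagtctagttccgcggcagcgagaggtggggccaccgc
his-31/his-32: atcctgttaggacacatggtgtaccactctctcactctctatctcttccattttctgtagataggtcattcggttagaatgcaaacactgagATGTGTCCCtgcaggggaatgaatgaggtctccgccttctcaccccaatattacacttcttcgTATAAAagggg
his-60/his-59: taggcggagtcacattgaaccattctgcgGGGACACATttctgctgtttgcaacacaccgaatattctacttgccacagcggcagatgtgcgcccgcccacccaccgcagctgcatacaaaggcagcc
his-4/his-3: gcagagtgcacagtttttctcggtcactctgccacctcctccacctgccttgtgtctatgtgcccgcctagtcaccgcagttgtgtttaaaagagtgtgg

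The strongest histone region was that of his-37, an H4 gene that has no divergent partner within its cluster. Its signal was 188 in the pooled list, where it ranked 449, 148 in replicate 2 and 37.2 in replicate 3. Both replicate values were above the medians of the counterparts of the IDR peaks, which were 45.8 in replicate 2 and 19.2 in replicate 3. Divided by these medians, the signal was 2.59 ± 0.918 (SD, n = 2) times the median peak. The summit lay 90 bp upstream of the his-37 5' end, at chrV:9547015, at the same base in replicate 2 and 24 bp to its left in replicate 3. No other gene's window held it. None of the region was repeated sequence.

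The same cluster holds his-35, whose H2A protein shares 126 of 127 residues with the commonest one, and his-41, whose H2B shares 120 of 123. The region between them, 105 bp upstream of his-35 and 143 bp upstream of his-41, had a signal of 17.7 in the pooled list (rank 2543), 14.1 in replicate 2 and 5.07 in replicate 3. Scaled to the median peak it was 0.286 ± 0.0310 (SD, n = 2), and it did not pass the IDR threshold. The replicate 3 summit lay 65 bp to the right of the pooled one. Weaker regions stood inside his-35 (8.93) and 36 bp downstream of the start of the neighbouring gene C50F4.6 (8.77), each in the pooled and replicate 2 lists. A stronger region (215 in the pooled list) stood past the 3' end of his-35, beside mdf-1 and outside the histone windows. The span of this cluster, 2949 bp, was 1.03% repeated and held 4 summits in each of the 3 lists, beside 0.882 at the rate of pooled regions over the genome.

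The H4 gene his-67 and the H2A gene his-68 are transcribed away from each other, the sole divergent pair here of that kind. The peak between them had a signal of 53.9 in the pooled list (rank 1059), 38.2 in replicate 2 and 15.5 in replicate 3. This was 0.820 ± 0.0187 (SD, n = 2) times the median peak, nearly the same in both replicates after scaling. The summit lay 109 bp upstream of his-68 and 260 bp upstream of his-67. The window of alg-5, an Argonaute gene, held it too, at 779 bp. Both histone genes encode the commonest protein of their class, and their windows were 7.03% repeated.

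**Figure D3:**
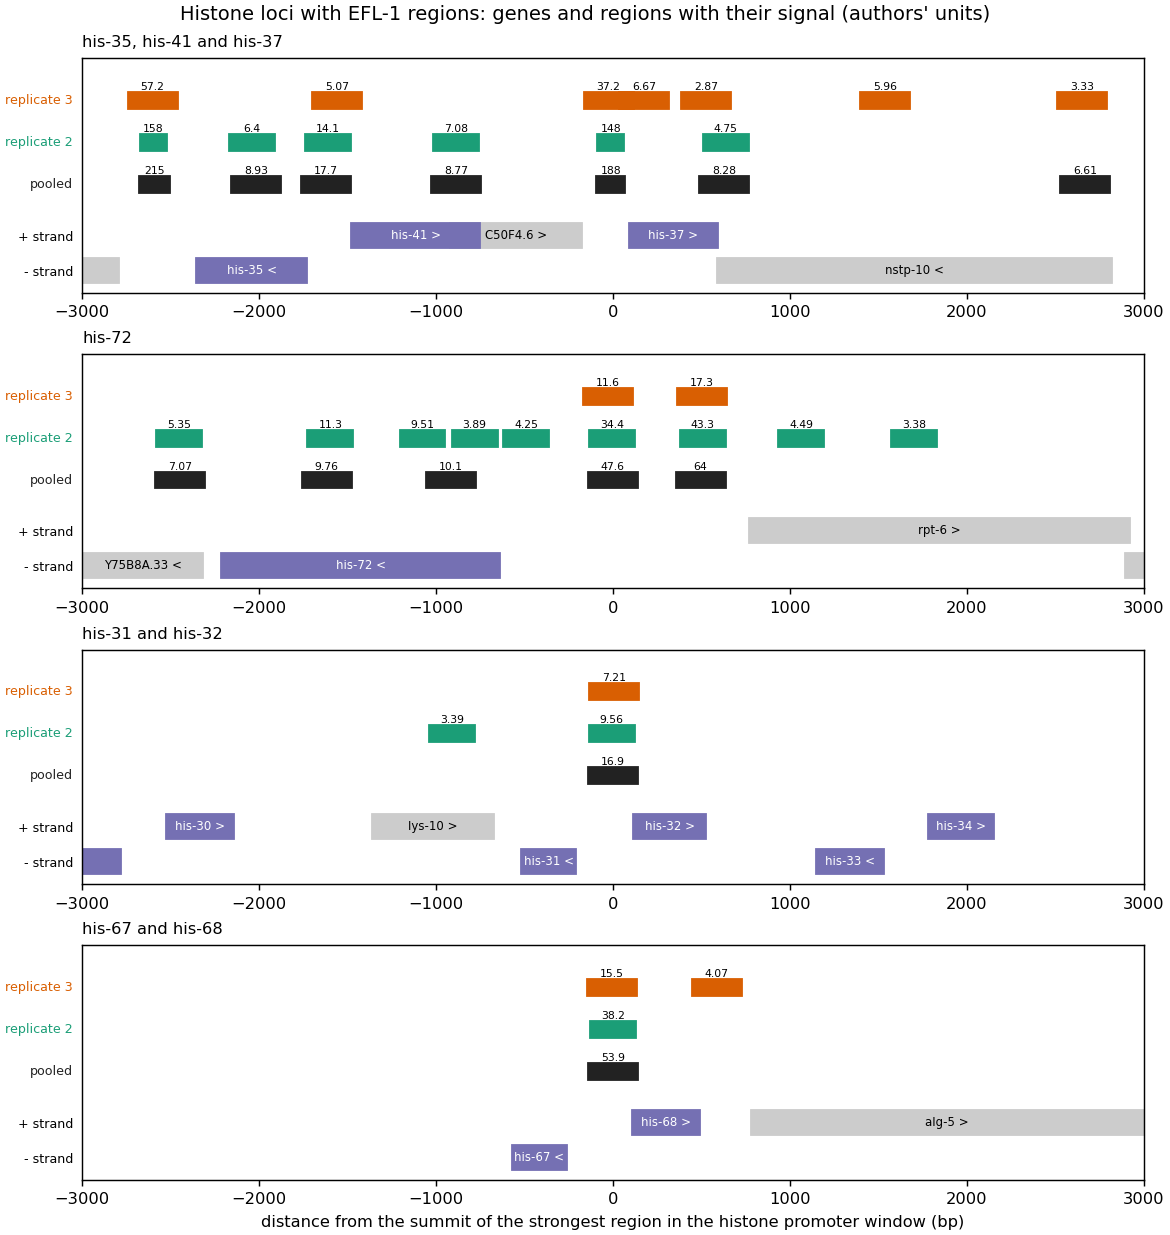
Genes (purple for histone genes, grey for others, with arrowheads for direction) and regions of the pooled, replicate 2 and replicate 3 lists, each with its signal in the authors' units, by distance from the summit of the strongest region at the histone gene (bp), at 4 loci. The regions at 0 stand in all 3 lists at each locus, with pooled signals of 188, 47.6, 16.9 and 53.9 from top to bottom.

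Of the 5 histone genes that stand alone, his-72 alone had an IDR peak. This gene and his-71 encode H3.3, the H3 variant that is deposited outside S phase, and their proteins share 127 and 128 of 136 residues with the commonest H3. The his-72 peak had a signal of 47.6 in the pooled list (rank 1171), 34.4 in replicate 2 and 11.6 in replicate 3, or 0.676 ± 0.105 (SD, n = 2) times the median peak. Its summit lay 637 bp upstream of his-72 and 769 bp upstream of rpt-6, a proteasome subunit gene that is transcribed the other way. A stronger region of the pooled list (64.0) stood between this one and rpt-6, outside the his-72 window. Further regions at 279 bp and 94 bp downstream of his-72 transcript starts had signals of 10.1 and 9.76 and met regions of replicate 2 but none of replicate 3.

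The other single genes had no IDR peak. At his-71 the pooled signal was 6.69, beside 6.80 in replicate 2 and 5.58 in replicate 3, with the replicate 3 summit 228 bp away. At his-24, the H1 gene, it was 6.31, with 2.80 in replicate 3. The replicate 2 region of his-24, with 4.93, lay elsewhere in the window, nearer to the 5' end, and did not overlap the pooled one. At his-73, whose annotated protein is a 46-residue fragment of H3, it was 6.37, and the summit was nearer to the start of W09H1.4. No region of the pooled list stood at his-74, another H3.3 gene, whose window held no repeated sequence, and its sole listed region was in replicate 3, with 3.46. The pooled signals of his-71, his-24 and his-73 ranked 21872, 24849 and 24307 among the 30000 regions. The H3.3-like genes his-69 and his-70, a pair on chromosome III, had no region and 1 of 5.98, respectively.

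Set side by side, 3 of 67 clustered genes had an IDR peak (4.48%, 0.933 to 12.5%) and 1 of 5 single genes (20.0%, 0.505 to 71.6%). In the pooled list there were 17 of 67 (25.4%, 15.5 to 37.5%) and 4 of 5 (80.0%, 28.4 to 99.5%). The intervals of clustered and single genes overlapped in both lists. The median window of clustered genes was 81.7% repeated and that of single genes 0%, and all 5 single genes had at most 50% repeated. Of the 26 clustered genes with at most 50% of the window repeated, 3 had an IDR peak (11.5%, 2.45 to 30.2%) and 14 a pooled region (53.8%, 33.4 to 73.4%), beside 11.3% and 52.2% of all genes in that range. By class, an IDR peak stood at 2 of 16 H4, 1 of 17 H2A, 1 of 21 H3, 0 of 17 H2B and 0 of 1 H1 genes. Pooled regions stood at 6 H4, 4 H2A, 7 H3, 3 H2B and 1 H1 gene. Genes that encode the commonest protein of their class had an IDR peak in 3 of 54 cases, and those that encode another protein in 1 of 18.

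**Figure D4:**
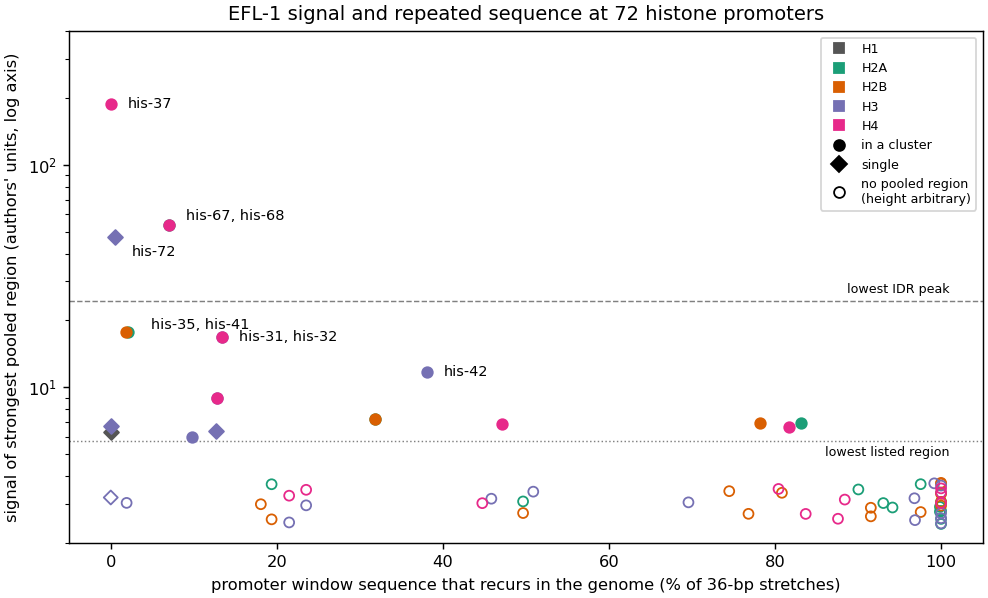
Signal of the strongest pooled region (vertical log axis, authors' units) by the share of the promoter window that recurs in the genome (horizontal axis, %) for the 72 histone genes. Colour gives the class, diamonds are single genes, and open symbols below the dotted line are genes with no pooled region, at an arbitrary height. The genes above 10 in signal lie at the left, and of the 41 genes above 50% on the horizontal axis 3 have a region.

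Together the clusters held fewer pooled summits than the genome's rate, and the most repeated ones held none. Their spans add up to 62.0 kb and held 9 pooled summits, beside 18.5 at the genome's rate of 299 regions per Mb. All 9 lay in clusters with at most 50% of the span repeated, though not every such cluster held one. In 8 of 14 clusters there was none. The longest, 13 genes from his-16 to his-42 on chromosome II, covers 10938 bp, was 92.9% repeated and held 0 summits in any of the 3 lists, beside 3.27 at the genome's rate. The clusters from his-50 to his-53 (100% repeated) and from his-28 to his-18 (98.9% repeated) on chromosome V held none either. The region counted for his-42, an H3 gene at the edge of its cluster, had a signal of 11.7 in the pooled list (rank 5014) and 4.65 in replicate 2, none in replicate 3, and lay 863 bp upstream of the gene.

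Most core histone genes stand in divergent pairs that share 1 intergenic promoter. There were 31 such pairs, with 227 to 368 bp between the genes (median 258 bp). Of these, 14 joined H3 with H4, 16 joined H2A with H2B and 1 joined H4 with H2A. A pooled summit lay between the genes in 5 pairs, a replicate 2 summit in 6, a replicate 3 summit in 5 and an IDR summit in 1. Of the 11 pairs with at most 50% of this sequence repeated, 5 had a pooled summit and 7 had one in some list. Of the 20 other pairs, none had a summit in any list. The genome held 299 pooled regions per Mb, but no share is given here for other intergenic sequence of this length. These counts therefore do not place the pairs above or below such sequence.

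Between his-31 and his-32 the signal was 16.9 in the pooled list (rank 2659), 9.56 in replicate 2 and 7.21 in replicate 3. This was 0.292 ± 0.118 (SD, n = 2) times the median peak, below the IDR threshold in signal, and the replicate summits lay 6 bp to the left and 5 bp to the right of the pooled one. Between his-60 and his-59 the signal was 8.98 in the pooled list (rank 10405) and 2.99 in replicate 3, with no region in replicate 2. Between his-4 and his-3 it was 7.20 in the pooled list (rank 18489), 4.01 in replicate 2 and 6.30 in replicate 3.

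The latter 2 sequences resemble that of a pair with no summit, although no 36-bp stretch of either recurs in the genome. The sequence between his-60 and his-59 had 219 of 256 aligned bases in common (85.5%) with that between his-63 and his-64, which held no summit in any list. The sequence between his-4 and his-3 had 259 of 292 (88.7%) in common with that between his-51 and his-52, which is repeated throughout and held none. For the stronger regions the closest pair without a pooled summit was less alike, 56.2% for his-31 and his-32 and 45.7% for his-35 and his-41.

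**Figure D5:**
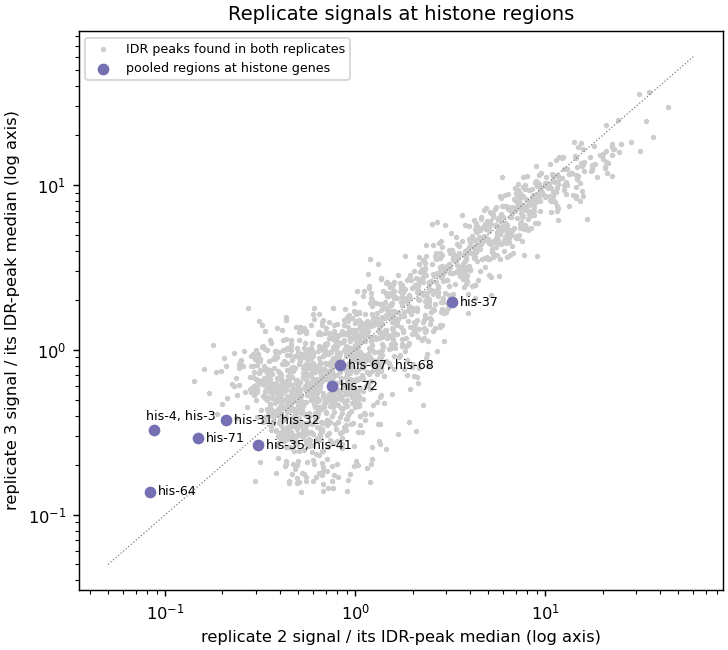
Signal in replicate 3 against replicate 2, each divided by the replicate's median over the counterparts of the IDR peaks (both axes log, no unit), for IDR peaks found in both replicates (grey) and the pooled regions at histone genes found in both (purple). The dotted line marks equal values. The region of his-37 (3.24 and 1.94) is the one histone region above 1 on both axes, and those of his-67 with his-68 (0.833 and 0.807) and his-72 (0.750 and 0.602) lie just below.

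The E2F motif was rare at histone promoters. It was searched on both strands as TTTNNCGC, with each N a C or G. In the narrow window, 300 bp before to 100 bp past the 5' end, 1 of 72 histone genes held it, his-37, beside 1198 of all 19973 protein-coding genes. Within 100 bp of the summit it was in 1 of the 19 histone regions, again that of his-37, beside 12.4% of IDR peaks and 3.79% of pooled regions. None of the 31 divergent intergenic sequences held it. No match says only that these letters are not in these windows.

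The hexamer TTTGAA, the core of the CHR element that LIN-54 of the DREAM complex is known to bind, was searched on both strands. It was in the narrow window of 16 of 72 histone genes (22.2%), beside 71.8% of all genes. Around the summit, within 100 bp, it was in 6 of 19 histone regions, including those of his-67 with his-68 and his-72. This stands beside 47.6% of all pooled regions and 49.8% of IDR peaks. The TATA-box hexamer TATAAA, searched likewise, where general transcription factors are known to bind, was in the narrow window of 52 of 72 histone genes (72.2%), beside 45.0% of all genes. It was in 24 of the 31 divergent sequences. Of 65 of the 72 genes the annotated 5' end is the start codon, so the true starts lie upstream and these windows are shifted towards the coding part. The motif shares of histone genes and all genes were not corrected for the number of transcript starts either.

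The 9-base run that the regions of his-37, his-31 with his-32 and his-60 with his-59 share was then counted over the genome. It was in the narrow window of 43 of 72 histone genes (59.7%), beside 76 of all 19973 genes (0.381%), the histone genes included. Of its 399 sites on both strands, 24 lay in histone windows, and it stood in 20 of the 31 divergent pairs, 9 of H3 with H4 and 10 of H2A with H2B. In the his-37 region its centre lay 6 bp left of the summit and in the his-31 and his-32 region 4 bp left of it. In those of his-67 with his-68 the nearer of its 2 sites was 28 bp left. In the his-60 and his-59 region it lay 67 bp left, and in the his-4 and his-3 region 120 bp left.

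Most sites of the run had no region beside them. Of the 10 histone sites whose 100 bp on either side were at most 50% repeated, 4 had a pooled summit within 100 bp. Of these 4, 3 lie in the printed stretches from which the run was taken, so their summits were given in advance. The remaining site is between his-67 and his-68. Of the 375 sites elsewhere, 23 (6.13%) had one and 0 had an IDR summit. The genome held 299 pooled regions per Mb, and the share of other positions this near a summit is not given here. These counts therefore do not show whether the run stands nearer to summits than other sequence does. A longer run of 14 bases, ATGTGTCCCCGCAG, was shared by the printed stretches of his-37 and of his-60 with his-59. It also stood 25 bp left of the summit between his-67 and his-68 and 122 bp left of that between his-4 and his-3. It had 30 sites in the genome, of which 12 lay in histone windows. These runs were picked from the printed sequences and their counts are a description. Copies of histone promoters are not independent of each other.

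Beyond the his- genes, other genes supply or handle histones, and many of these had an EFL-1 peak. Of 29 genes on a list of linker histones of the hil family, variant histones and factors that process, carry or deposit histones, 14 had an IDR peak (48.3%, 29.4 to 67.5%), beside the 11.0% of all genes. Of the 8 hil genes 1 had a peak, hil-7 (29.6 in the pooled list). Of the 21 others 13 had one (61.9%, 38.4 to 81.9%). The list was drawn up with results of these data known, so its share is a description. The median window of these 29 genes held no repeated sequence.

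The strongest of these peaks was at cdl-1, which encodes the protein that binds the stem-loop of replication-dependent histone messages. Its signal was 539 in the pooled list (rank 135), 357 in replicate 2 and 182 in replicate 3, or 8.63 ± 1.19 (SD, n = 2) times the median peak, with the summit 163 bp upstream. Next was emb-5, the SPT6 histone chaperone gene, with 521 in the pooled list, 360 in replicate 2 and 158 in replicate 3 (8.06 ± 0.266). Both were above his-37 in each list.

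Among genes of variant histones outside the his- names, 2 of 4 had an IDR peak. At htz-1, the H2A.Z gene, the pooled signal was 363, with the summit 296 bp upstream but nearer to wapl-1. At hcp-3, the gene of the centromeric H3 variant CENP-A, it was 162, with the summit 120 bp upstream. Its paralog cpar-1 and the H2A variant gene htas-1 had no IDR peak, and their pooled signals were 9.40 and 10.6.

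Among the chaperones, hira-1, which deposits H3.3, had a pooled signal of 331 at 738 bp upstream, and lin-53, of the RbAp family, 351, with the summit nearer to nra-2. Its neighbour rba-1, of the same family, had no region in the pooled list. The genes of the CAF-1 subunits, which deposit H3 and H4 at replication, had 64.1 (chaf-1) and 111 (chaf-2). The ASF1 gene unc-85 had 36.7, while its paralog asfl-1 had no pooled region. The genes nap-1, nasp-1 and nasp-2 had 47.0, 58.3 and 112, the last with the summit nearer to C50B6.3, and the acetyltransferase gene hat-1 had 245. The FACT complex genes spt-16 and hmg-4 had pooled signals of 20.2 and 22.3, below the lowest IDR peak, hmg-3 had no pooled region, and xnp-1, of the ATRX family, had 18.9. Of the 14 peaks, 11 had a stronger pooled signal than that of his-67 and his-68, the next histone peak after his-37.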

How the data were processed

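Per the labels, the samples are 2 biological replicates of 1 group of L1 larvae. The authors deposited peak lists in narrowPeak format for the builds ce10 and ce11, and the ce11 lists were used. Their column 7 is a signal value as deposited, never negative, with no stated unit. No aligner, peak caller or version is named in these sources. Deposited notes give the replicate alignments and 1 further file, of a nature not stated, as the origin of the lists, so the handling of a control is unknown. The authors derived the IDR set from their replicate and pooled lists.

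Genes and 5' ends came from Ensembl release 115 (WBcel235, the same assembly as ce11). Ensembl repeats symbols among the 72 members (50 distinct), so names were taken from RefSeq (WBcel235), which matched 72 of 72 by identical coordinates. Promoter windows, counts, Clopper-Pearson intervals, repeated stretches, motifs and alignments were computed with Python 3.11.15, pandas 2.3.3, numpy 2.4.6, scipy 1.17.1 and Biopython 1.88. A region of a replicate counted as the counterpart of a pooled one when they overlapped by at least 1 bp. Replicate signals were divided by the replicate's median over the counterparts of the IDR peaks. The functions were tested on simulated data. No test between groups was possible with 1 group, and the numbers of replicates (n = 2) limit the precision of each mean.

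The members and gene lists were chosen with earlier results of these data known. The text names every histone gene with an IDR peak, every single histone gene and the 5 strongest pooled regions at histone genes below the IDR threshold. It also names pairs of similar sequence and listed other genes with an IDR peak. Other genes were named after their values were seen. Alternatives were each replicate alone, the stronger part of the IDR set, the whole pooled list, other windows, overlap in place of summits, the nearest 5' end, other gaps between neighbours and 50-bp stretches.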

Additional observations from a re-analysis of the deposited data

How the results depend on the processing

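Of 41 alternative values, 28 stayed within 1.5 times the reported one and 13 moved by more. With the 943 strongest IDR peaks, 1 histone gene had a peak (his-37), 1 of them clustered and 0 single, beside 1295 of all genes. With all 30000 pooled regions there were 21 histone genes, 17 clustered and 4 single, beside 10183 of all genes. In the window from 300 bp upstream to 100 bp downstream, 0 single genes had an IDR peak, since the his-72 summit lies outside it, beside 1432 of all genes, and 13 histone genes had a pooled region. In the longer window from 1000 bp upstream to 500 bp downstream, 6 histone genes (8.33%) held the E2F motif, beside 19.6% of all genes. In that window 64 histone genes (88.9%) held TTTGAA, beside 98.9% of all genes. With the strongest regions of 1 replicate alone, leaving out the other, the histone count was 4 to 4, the same 4 genes each time, that of clustered genes 3 to 3, that of single genes 1 to 1 and that of all genes 2081 to 2163. The pooled count of 21 became 17 to 21 in a single replicate's list. Counting the nearest 5' end only, his-67 was left out and 3 histone genes remained. With the repeat limit at 25%, an alternative added after the data were seen, 14 of 23 histone genes had a pooled region, and with 50-bp stretches 18 of 32 had one. No paired analysis was possible because the samples form 1 group. Without read counts, a region below the end of a list cannot be told from no enrichment.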
